A study of Homo sapiens with 12 samples.

Results

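The genes described here are 10 protein genes of the mitochondrial genome, ND1, ND2, ND3, ND4, ND4L, ND5, ND6, CYTB, COX1 and COX2, taken by their symbols from the count tables. All 10 were among the 27825 named genes of the first table and 5 of them (ND1, ND2, ND4L, ND5 and CYTB) were among the 904 genes of the second. They were chosen with the antagonist result already known, ND5 being higher and most of the others lower, so their values in that comparison are a description and carry no test. U937 is a human pro-monocytic leukaemia cell line. By the sample labels, its cells were first given 50 ng/mL interferon gamma, and that pretreatment is common to all 4 groups of 3 libraries. In set 1, cells treated with a LILRB3 antagonist antibody were set against nonspecific IgG, and in set 2, cells treated with a LILRB3 agonist antibody were set against an IgG group of their own. LILRB3 is a surface receptor of monocytes and related cells that dampens their signalling. The labels give 72 hours of antibody treatment, write the antibody dose as 5 mg/mL, and do not say whether the libraries of a group came from separate cultures, so that the spread between them may be technical.

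Mitochondria carry a small circular genome whose protein genes all code for subunits of the respiratory chain and of ATP synthase. The ND genes code for core subunits of complex I, which takes electrons from NADH, CYTB for the cytochrome b of complex III, and COX1 and COX2 for the catalytic core of complex IV, which passes electrons to oxygen. Both strands are copied into long precursor RNAs that are cut apart mostly at the tRNAs lying between the genes. ND4L and ND4 stay together on 1 mature messenger RNA, and ND6 is the only messenger coded on the opposite strand from the rest. COX1 and COX2 here are the mitochondrial cytochrome oxidase genes and not the cyclooxygenases PTGS1 and PTGS2, which had their own rows in the set 1 table.

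The position of the members matters for reading their counts, since 2 pairs of neighbouring members have no tRNA gene between them. ND4L (MT:10470-10766, GRCh38, plus strand) and ND4 (MT:10760-12137, plus strand) overlap by 7 bases. ND5 (MT:12337-14148, plus strand) ends on the base before the end of ND6 (MT:14149-14673, minus strand), so that these genes meet tail to tail with 0 bases between them. The facing ends, 30 bases each, are given here from the GENCODE release 29 transcripts to show both junctions. Capitals mark the bases shared by ND4L and ND4 and the last 3 bases of ND5 and ND6.
ND4L last bases, MT:10737-10766, plus strand: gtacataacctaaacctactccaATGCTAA
ND4 first bases, MT:10760-10789, plus strand: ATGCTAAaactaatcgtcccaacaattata
ND5 last bases, MT:14119-14148, plus strand: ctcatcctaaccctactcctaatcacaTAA
ND6 last bases, MT:14149-14178, minus strand: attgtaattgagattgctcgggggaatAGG

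The use of strand in counting is not given in the sources used here. If strand was not used, reads of ND5 cannot be told apart from reads of the opposite-strand RNA that runs on beyond ND6. In the same way, reads of ND6 cannot then be told apart from reads of plus-strand RNA that runs on beyond ND5. What part either had in the counts of ND5 and ND6 was not tested. With or without strand, a read across the junction of ND4L and ND4 can be given to either gene. ND5 is the longest of the 10 genes, with 1812 bases and a GC content of 44.9%, and ND4L the shortest, with 297 bases. Of the other members, the GC content lay between 40.2% (ND3) and 47.7% (ND1).

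With the antagonist, ND5 and its neighbour ND6 were the members with higher counts, while ND2, ND3, ND4, ND4L, CYTB, COX1 and COX2 were lower and ND1 differed least. ND5, a proton-pumping subunit of complex I, had 1183, 1245 and 1207 CPM (counts scaled to a common library size, as CPM with TMM factors) in the antagonist libraries, against 749, 818 and 848 CPM in the IgG libraries. Every antagonist library lay above every IgG library, with means of 1211 ± 31 CPM and 805 ± 50 CPM (SD, n = 3 each). The log2 fold change was 0.59 ± 0.06 (SE), or 1.505-fold. ND6, a complex I subunit coded on the minus strand, had 459, 518 and 495 CPM in the antagonist libraries and 362, 353 and 411 CPM in the IgG libraries. The groups of ND6 did not overlap either, and its log2 fold change was 0.39 ± 0.07.

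**Figure D1:**
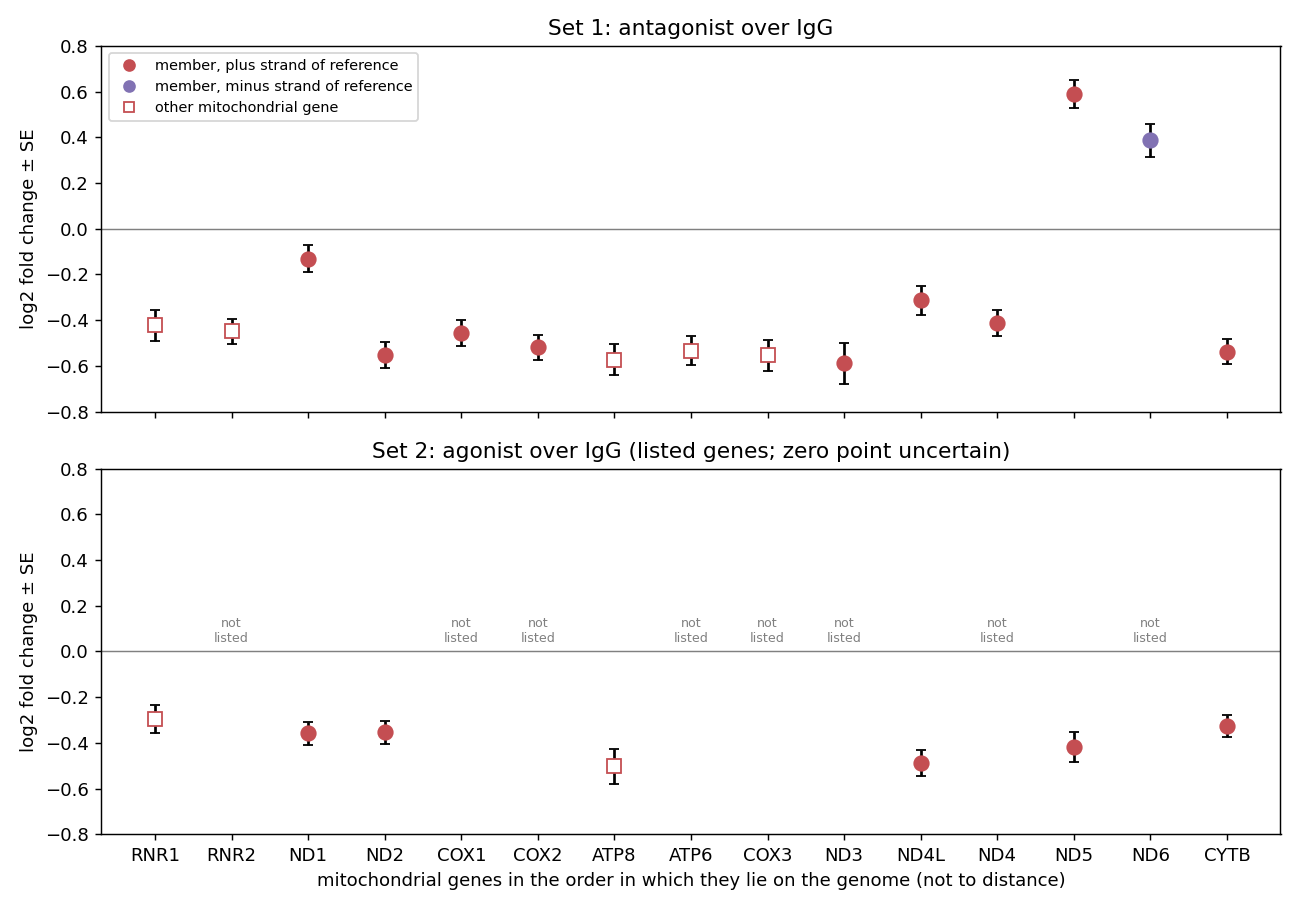
Log2 fold change with its SE of the members (filled circles, coloured by strand of the reference) and of other mitochondrial genes (open squares), in the order of the genes along the mitochondrial genome, for antagonist over IgG (top) and agonist over IgG (bottom). In the top panel the neighbours ND5 (0.59) and ND6 (0.39) are above zero and all other plotted genes below it, and in the bottom panel all listed genes, ND5 included (-0.42), are below it.

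The genes on either side of that pair were lower with the antagonist. CYTB, which follows ND6 on the genome with the tRNA gene TRNE between them, had 517, 551 and 533 CPM in the antagonist libraries and 762, 769 and 793 CPM in the IgG libraries (log2 fold change -0.54 ± 0.06). ND4, a pumping subunit of complex I that lies before ND5 with 3 tRNA genes between them, had 4984, 5451 and 5142 CPM in the antagonist libraries and 6857, 6664 and 7229 CPM in the IgG libraries (-0.41 ± 0.06). For both genes all antagonist libraries were below all IgG libraries. The change of sign along the genome thus fell at each end of the pair of ND5 and ND6.

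Among the remaining complex I genes, ND2 averaged 1308 ± 57 CPM with the antagonist and 1916 ± 51 CPM with IgG (-0.55 ± 0.06). ND3, a small membrane subunit of complex I, had 292, 325 and 299 CPM in the antagonist libraries and 535, 430 and 413 CPM in the IgG libraries, with IgG library 1 well above the other 2. Its log2 fold change was -0.59 ± 0.09, and -0.44 without that library. ND4L had 436, 453 and 425 CPM in the antagonist libraries and 578, 547 and 507 CPM in the IgG libraries (-0.31 ± 0.06, beside -0.41 ± 0.06 for ND4, with which it shares its messenger). ND1 was the exception: its 1025, 1129 and 1075 CPM in the antagonist libraries overlapped with 1196, 1127 and 1215 CPM in the IgG libraries, and its log2 fold change was -0.13 ± 0.06.

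Both complex IV genes were lower with the antagonist, and COX1 had the highest CPM of all members, followed by ND4 and COX2. COX1 had 7917, 8571 and 8161 CPM in the antagonist libraries and 11011, 10971 and 11837 CPM in the IgG libraries (-0.46 ± 0.06). COX2, the subunit that receives electrons from cytochrome c, averaged 2336 ± 90 CPM with the antagonist and 3348 ± 101 CPM with IgG (-0.52 ± 0.06). Neither gene had groups that overlapped. The protein genes outside the member list went the same way, with COX3 at -0.55 ± 0.07, ATP6 at -0.53 ± 0.06 and ATP8 at -0.57 ± 0.07.

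**Figure D2:**
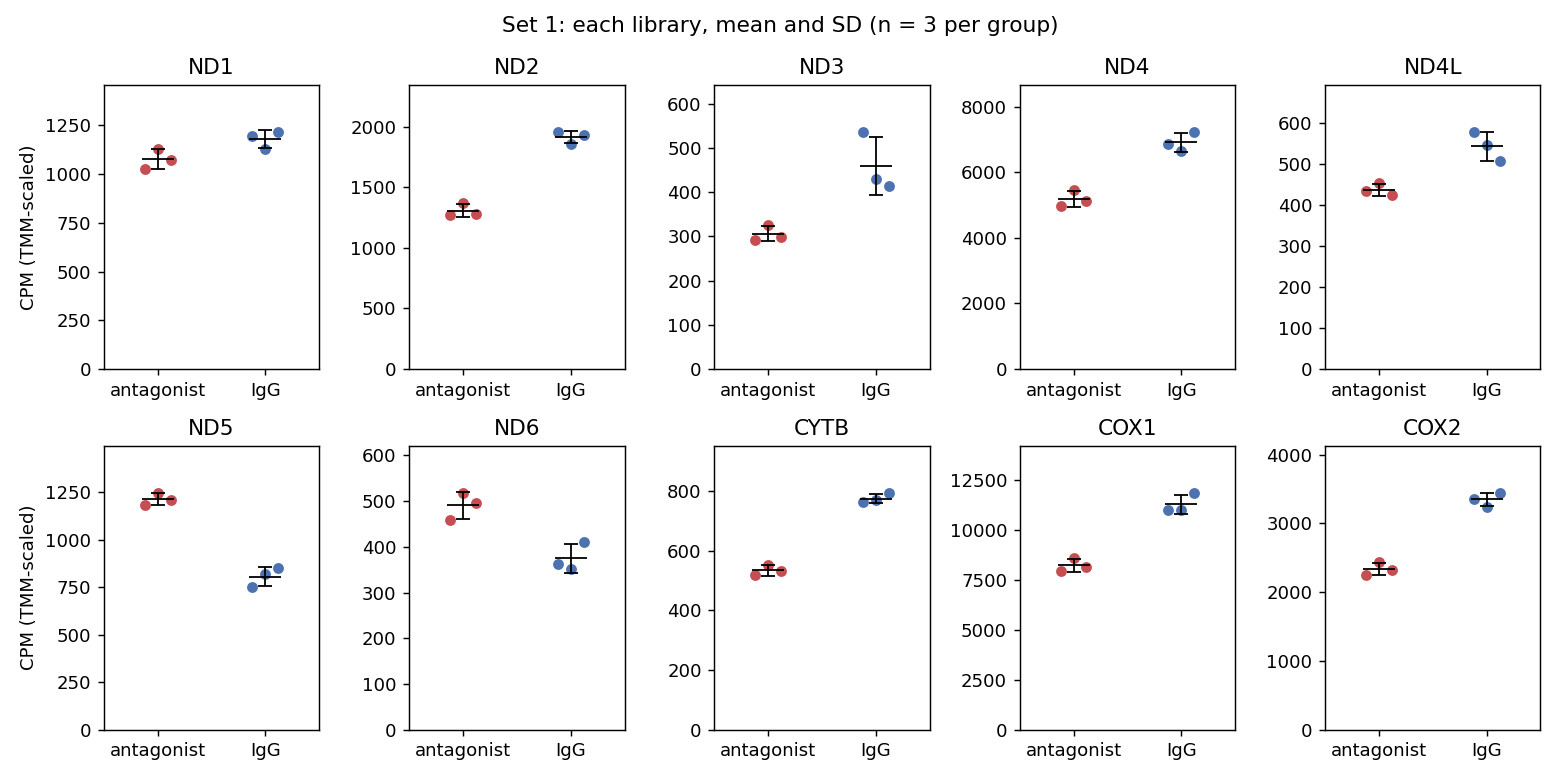
TMM-scaled CPM of each member in the 3 antagonist and the 3 IgG libraries of set 1 (points), with mean and SD, each axis starting at 0. ND5 and ND6 are higher with the antagonist, ND1 overlaps, and the other 7 members are lower with no overlap.

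In the quasi-likelihood test over the whole set 1 table, 7 of the 10 members passed an adjusted p of 0.05 as lower and 2 as higher, where 20.5% of all 13778 tested genes passed as lower and 15.6% as higher. Since this comparison chose the members, nothing is read from those counts. The same members had groups that did not overlap, in a table where this was so for 27.1% of genes in the lower and 21.9% in the higher direction. The median log2 fold change was -0.43 over the members and -0.01 over all tested genes. ND5 ranked high in the whole table, since 5.995% of tested genes had a larger log2 fold change, and ND3 ranked low, since 98.9% had a larger one. The share of higher calls among all genes was 43.1% with TMM and 65.4% with library totals in its place, under which ND5 stood at 0.67 and ND1 at -0.05.

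Shares within the mitochondrial messengers do not depend on how libraries are scaled. The 10 members together took between 2.09% and 2.28% of the counts of named genes in the antagonist libraries and between 2.61% and 2.73% in the IgG libraries. ND5 made up 5.82%, 5.64% and 5.76% of the members' counts in the antagonist libraries, against 2.74%, 3.05% and 2.96% in the IgG libraries. Of the counts of all 13 mitochondrial protein genes, ND6 took 1.91% ± 0.04 with the antagonist and 1.09% ± 0.05 with IgG, and ND1 took 4.18% ± 0.03 and 3.43% ± 0.05 in the same order of groups. ND1 was thus a larger part of the mitochondrial pool with the antagonist, although its CPM was not higher. ND4 kept nearly the same share, 20.2% with the antagonist and 20.1% with IgG.

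Read per length of gene, the members differed widely in level, and ND5 stood at the low end. In the antagonist libraries CYTB was lowest with 468 ± 15 CPM per kilobase, followed by ND5 with 668 ± 17. ND3 (883 ± 50) and ND6 (935 ± 56) came next and did not differ beyond their spread, then ND1 (1126 ± 55), ND2 (1255 ± 55) and ND4L (1475 ± 49). COX2 (3415 ± 131), ND4 (3768 ± 172) and COX1 (5328 ± 214) were highest. In the IgG libraries ND5 was lowest with 444 ± 28 CPM per kilobase and COX1 highest with 7311 ± 317. There, CYTB (679 ± 14) and ND6 (715 ± 60), ND1 (1234 ± 48) and ND3 (1328 ± 191), ND4L (1832 ± 120) and ND2 (1839 ± 49), and COX2 (4895 ± 148) and ND4 (5019 ± 209) were neighbours in the order that did not differ beyond their spread.

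**Figure D3:**
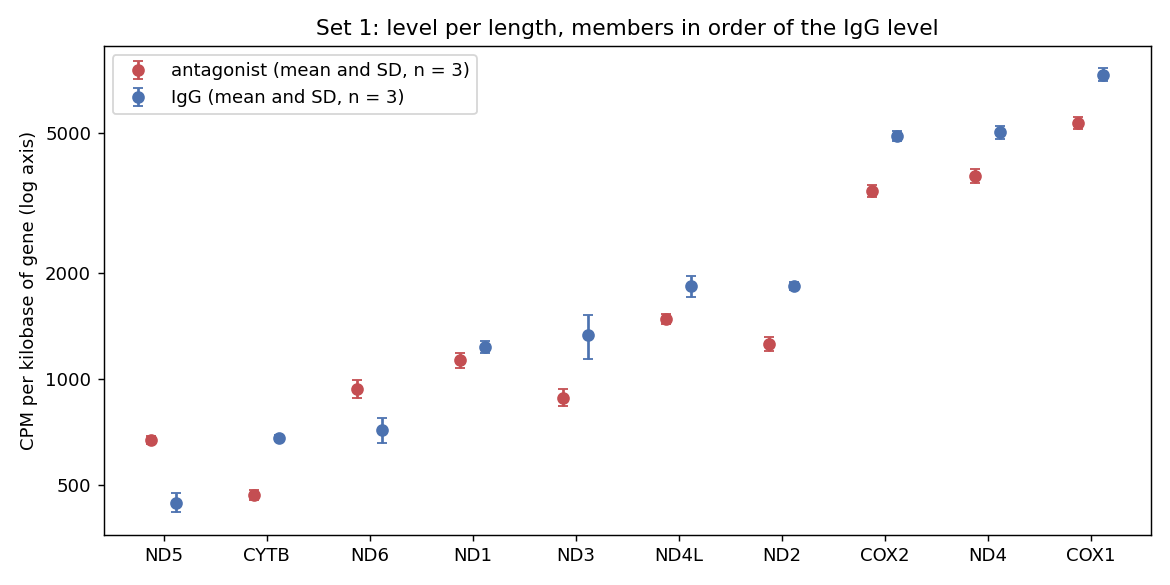
Level per kilobase of gene (log axis) of the members in antagonist and IgG libraries of set 1, mean and SD of 3 libraries, ordered by the IgG level. ND5 is the lowest member with IgG (444) and CYTB with the antagonist (468), and COX1 is the highest in both groups.

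With the agonist, all 5 listed members were lower than with IgG, and ND5 went with the others. ND5 had 25803, 27955 and 31343 counts in the agonist libraries, against 37905, 31501 and 36634 counts in the IgG libraries of set 2. Scaled by TMM over the listed genes, that was 8549 ± 897 against 11412 ± 126 CPM of listed counts, with no overlap and a log2 fold change of -0.42 ± 0.06. ND4L averaged 4540 ± 310 CPM of listed counts with the agonist and 6363 ± 268 with IgG (-0.49 ± 0.06). ND1 (-0.36 ± 0.05), ND2 (-0.35 ± 0.05) and CYTB (-0.33 ± 0.05) were lower by similar amounts.

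The set 2 table holds 904 genes only and was taken to be a selection, because its log2 fold changes leave a gap between -0.25 and 0.12. All 5 listed members passed the test as lower, where 44.2% of listed genes did so and 99.9% passed in either direction, and all 5 had groups that did not overlap. Of all listed genes 97.6% had groups that did not overlap, 44.1% in the lower and 53.4% in the higher direction. The share of higher calls in set 2 was 55.7% with TMM and 44.2% with DESeq2 size factors, the 5 members being lower with both. Being listed had already chosen them on these libraries, and the zero point of the scale is uncertain. ND3, ND4, ND6, COX1 and COX2 were not listed and cannot be judged in set 2, so the neighbour ND6 could not be set beside ND5 there. The median log2 fold change was -0.36 over the 5 members and 0.19 over all listed genes.

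Agonist library 1 was unlike its 2 companions: over the listed genes, chi-square divided by its degrees of freedom was 24.9 and 26.6 for the pairs with it and 3.74 for the pair without it. Without it the log2 fold change of ND5 was -0.34. The share of ND5 in the counts of the 5 listed members needs no scaling, and it was 39.5%, 43.2% and 43.3% in the agonist libraries and 42.3%, 42.6% and 42.0% in the IgG libraries. The groups overlapped, with means of 42.0% ± 2.2 and 42.3% ± 0.3, and differed by -0.30 percentage points, or by 0.95 without agonist library 1. An exact two-sided permutation test gave p = 1, but with 3 libraries a group it cannot give a p below 0.1, so it shows neither a difference nor the lack of one. In set 1, IgG library 1 was unlike the other IgG libraries by the same measure (10.4 and 18.5 for the pairs with it and 4.32 without it), and without it the log2 fold change of ND5 was 0.57.

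The counts of ND5 and ND4L relative to ND1 differed more between the sets than between either antibody and its IgG. ND5 counts were 1.15, 1.10 and 1.12 times the ND1 counts in the antagonist libraries and 0.627, 0.726 and 0.698 times in the IgG libraries of set 1. In set 2 the ratio was 2.98, 3.67 and 3.79 in the agonist libraries and 3.62, 3.67 and 3.57 in the IgG libraries. Both IgG groups are described in the sample labels by the same treatment, and their ND5 ratios did not overlap. The column headers name interferon in set 1 (IFN_IgG) but not in set 2 (IgG Ctrl). The ratio of ND4L to ND1 was likewise 0.407 ± 0.016 with the antagonist and 0.462 ± 0.039 with IgG in set 1, and 1.85 ± 0.16 with the agonist and 2.02 ± 0.04 with IgG in set 2. The ribosomal RNA gene RNR1 also had a higher ratio in set 2, with 0.493 ± 0.035 in the IgG libraries of set 1 and 1.82 ± 0.01 in those of set 2. ND2 went the other way, with 1.63 ± 0.03 and 1.26 ± 0.03 in the same order. For CYTB the IgG groups were alike: its ratio to ND1 was 0.658 ± 0.023 in the IgG libraries of set 1 and 0.659 ± 0.024 in those of set 2. With the antibodies it was 0.496 ± 0.008 for the antagonist and 0.674 ± 0.015 for the agonist. Ratios of counts within a library need no depth, but what else differed between the sets is not given in the sources used here, so set and library preparation cannot be told apart.

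**Figure D4:**
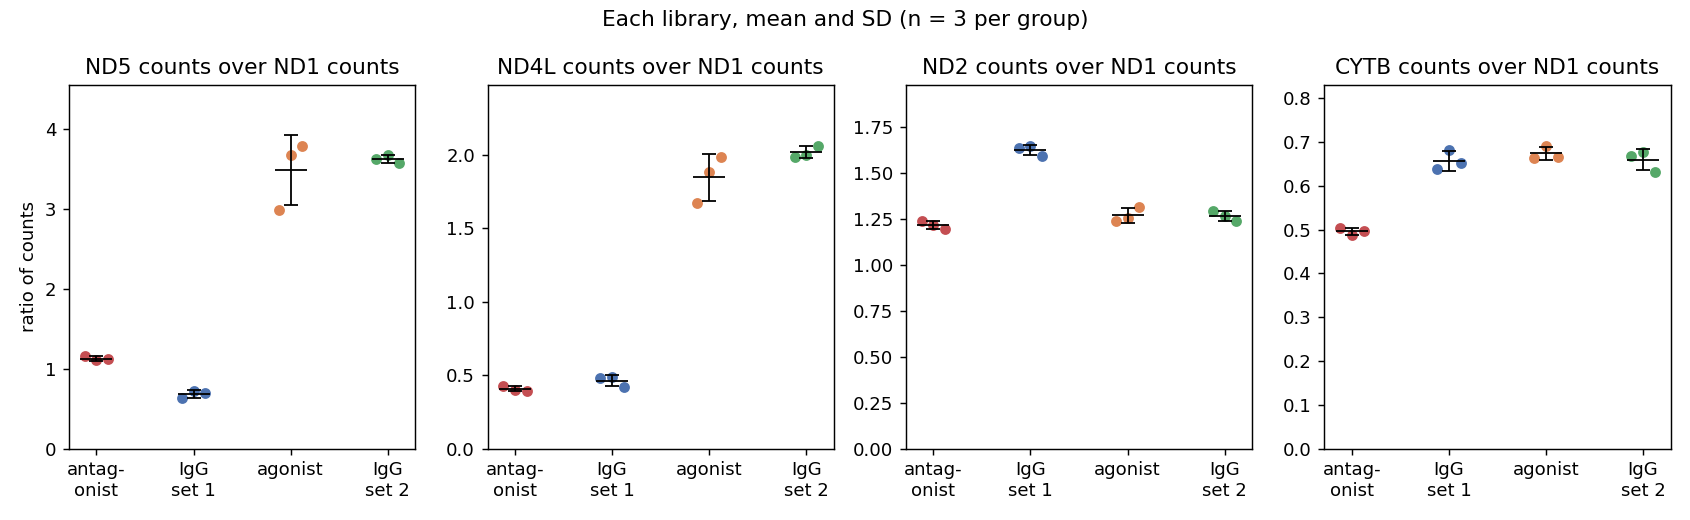
Counts of ND5, ND4L, ND2 and CYTB over the counts of ND1 in each library of the 4 groups, with mean and SD of 3 libraries. The ND5 ratio is near 1.1 with the antagonist and between 0.627 and 0.726 with its IgG, and between 2.98 and 3.79 in all set 2 libraries.

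Nuclear genome copies of mitochondrial sequence can take or give reads. Of the 50-base windows of ND5, 4.77% also occurred in a nuclear transcript of GENCODE release 29, all in the pseudogene MTND5P11. The share was 49.5% for COX1, 43.6% for ND2, 22.1% for ND1 and 17.9% for ND6, while ND4 (3.54%) and CYTB (1.19%) shared few windows. ND3 and ND4L shared 0% with any nuclear transcript in that set. Only transcripts of that release were searched, so nuclear copies outside them are not covered. What part shared sequence had in the results was not tested.

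The nuclear genes that make, cut and protect mitochondrial RNA gave mixed results with the antagonist, and 19 did not pass. Of 36 tested genes of mitochondrial transcription and RNA processing, 13 passed as lower and 4 as higher (adjusted p by edgeR's quasi-likelihood test over all genes), with a median log2 fold change of -0.14. That is 36.1% lower and 11.1% higher, beside 20.5% and 15.6% of all tested genes. LRPPRC and SLIRP, which form a complex that stabilises most mitochondrial messengers, were lower, LRPPRC with 338 ± 14 CPM against 400 ± 17 CPM with IgG (log2 fold change -0.24 ± 0.06, adjusted p = 0.0074) and SLIRP at -0.45 ± 0.11 (adjusted p = 0.00788). FASTKD5, which is needed for messengers not flanked by tRNAs, was lower (-0.37 ± 0.10, adjusted p = 0.013), and its relative FASTK, which is needed for ND6 RNA, was higher (0.21 ± 0.07, adjusted p = 0.0451). The helicase SUPV3L1 of the RNA-degrading complex was lower (-0.25 ± 0.08, adjusted p = 0.0285), whereas its nuclease partner PNPT1 stood at 0.00 ± 0.07 and did not pass (adjusted p = 0.976).

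The transcription factors of the mitochondrial genome TFAM (-0.39 ± 0.08, adjusted p = 0.00274) and TFB2M (-0.25 ± 0.08, adjusted p = 0.028) were lower. The mitochondrial RNA polymerase POLRMT (0.25 ± 0.16), the elongation factor TEFM (0.32 ± 0.18) and the terminator MTERF1 (-0.09 ± 0.15) did not pass (adjusted p = 0.289, 0.188 and 0.684 by edgeR). The coactivators of mitochondrial biogenesis PPRC1 (0.51 ± 0.06) and PPARGC1B (0.46 ± 0.09), named after their values were seen, were higher. In set 2, LRPPRC (-0.31 ± 0.06) and FASTK (0.21 ± 0.08) were the listed genes of this group.

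The nuclear subunits of the same complexes were mostly lower with the antagonist. Of 61 nuclear subunits of complexes I to IV, 57 passed as lower and 0 as higher (edgeR's quasi-likelihood test), with a median log2 fold change of -0.42 beside -0.43 for the members. That is 93.4% of them lower, beside 20.5% of all tested genes. The 5 most highly counted were the complex III subunits UQCRC1 (-0.35 ± 0.06) and CYC1 (-0.31 ± 0.06) and the complex I subunits NDUFS7 (-0.22 ± 0.07), NDUFV1 (-0.21 ± 0.07) and NDUFB9 (-0.45 ± 0.06). Of 16 assembly factors of complex I, 6 (37.5%) passed as lower, and 10 did not pass. The most highly counted of them, NDUFAF3, was lower (-0.50 ± 0.06). Of 12 tested genes of mitochondrial DNA replication, 3 (25.0%) passed as lower, among them the DNA-binding protein SSBP1 (-0.34 ± 0.09), and 1 (8.33%) as higher, which was POLG2 (0.33 ± 0.09), named after its value was seen. Beside 20.5% lower and 15.6% higher among all tested genes, the replication genes give no group result. With the agonist, by contrast, the listed nuclear subunits NDUFA1 (0.31 ± 0.08) and COX6B1 (0.22 ± 0.07) were higher than with IgG while the listed mitochondrial members were lower.

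The genes whose profile over the 6 set 1 libraries came closest to that of ND5 were nuclear. By root mean square distance of centred log2 CPM, over 4523 genes of at least 50 CPM, these included DDX12P (0.0215), ZNF862 (0.0271), PAN2 (0.0346) and GAB2 (0.0373). ND6 was 0.119 away from ND5, with 249 genes closer to it. The profile closest to the sum of the other members was that of ND4 (0.0102), then COX1 (0.0186), which are part of that sum, and the nuclear genes CLTA, PEBP1 and TPI1.

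Across the series, set 1 libraries held between 17035334 and 18820312 counts of named genes, and the listed genes of set 2 summed to between 2764479 and 3522203 counts, which are not library depths. The lowest count of any member in a library was 5123 in set 1 (ND3) and 5270 among those listed in set 2 (CYTB). All 10 myeloid marker genes looked up in set 1 were tested, and 4 (40.0%) passed as lower with the antagonist and 0 as higher. Among all tested genes 20.5% passed as lower and 15.6% as higher. CTSG, a granule protease of myeloid cells, was among the lower markers, with 2604 ± 62 CPM with the antagonist and 3326 ± 37 CPM with IgG. The 6 that did not pass included SPI1 (log2 fold change 0.08 ± 0.10), CD33 (0.02 ± 0.06), ITGAM (0.02 ± 0.09) and CEBPA (-0.07 ± 0.22). MPO had the lowest counts of the list, 43 in sum with the antagonist and 25 with IgG. Of 13 markers of other cell types 4 had enough counts to be tested, and CD79A had the smallest adjusted p among them, 0.262 by edgeR (unadjusted p = 0.159). MS4A1, HBB and EPCAM had 0 counts in all 6 libraries.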

How the data were processed

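For each set the authors deposited a table of raw read counts by gene symbol. HISAT2, Cufflinks and hg38 are named, per the submitters' processing notes; the counting program, the annotation, versions and strand setting are not given there. Columns carry the group name only, so libraries are numbered in column order. In the set 1 table, 570 of 28395 rows had no symbol (between 0.0678% and 0.105% of counts) and stayed out. Within each set, genes passing filterByExpr were scaled by TMM and compared with edgeR 4.0.16 in R 4.3.3 (robust quasi-likelihood test, Benjamini-Hochberg at 0.05), tested first on simulated data. DESeq2 1.42.0 was an alternative. SE is the log2 fold change over the root of F. Gene lengths came from RefSeq (GRCh38.p14), strands and sequences from GENCODE release 29. The named genes were all members, 11 regulators of mitochondrial RNA, the most highly counted genes of each list and, chosen after their values were seen, PPRC1, PPARGC1B and POLG2. Some genes that these rules name are not reported here. Members and lists were chosen with earlier results of these data known.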

Additional observations from a re-analysis of the deposited data

Results flagged for a closer look

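ND5 went in opposite directions with the 2 antibodies: its log2 fold change was 0.59 with the antagonist and -0.42 with the agonist, each against the IgG group of its own set, with every antibody library on one side of its IgG libraries. The difference itself was not tested, because the antagonist result chose the gene. For the agonist the lack of overlap says little, since 97.6% of the genes listed in set 2 had groups that did not overlap. The zero point of set 2 is also uncertain, with a median log2 fold change of 0.19 over all listed genes. Of the other 4 members listed in both sets, ND2, ND4L and CYTB were lower with each antibody. ND1 was lower with the agonist, but with the antagonist its groups overlapped (-0.13 ± 0.06) and it did not pass the test. The ND5 share of the 5 shared members was 26.5% ± 0.3 with the antagonist and 15.4% ± 1.0 with its IgG, and 42.0% ± 2.2 with the agonist and 42.3% ± 0.3 with its IgG (SD, n = 3).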

How the results depend on the processing

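No member changed sign under any of the 11 alternatives of set 1 or the 10 of set 2, and each kept its side of the threshold, with 7 members lower and 2 higher in set 1 and 5 lower in set 2. ND5 ranged from 0.57 to 0.67 with the antagonist and from -0.51 to -0.34 with the agonist, and ND1 from -0.17 to -0.05 with the antagonist. The count of all genes called in set 1 (4978) was between 3143 and 5075 when 1 library was left out, 3143 without antagonist library 1 and 3190 without antagonist library 3, and the cause was not tested. The ND5 share was higher with the antagonist by 2.82 percentage points of the members' counts, and by 2.36 with all 13 mitochondrial protein genes as denominator, which adds counts to it; leaving out 1 library gave 2.73 to 2.89. For the agonist this difference (-0.30) ran from -0.95 to 0.95 when 1 library was left out. With DESeq2 size factors 44.2% of calls in set 2 were higher, and 43.5% with the DESeq2 test, against 55.7% with TMM. No paired analysis was possible because the columns carry no replicate number.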

Other observations

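The mitochondrial ribosomal RNAs were lower with the antagonist, RNR2 with 9276 ± 380 CPM against 12654 ± 440 CPM with IgG (log2 fold change -0.45 ± 0.05) and RNR1 at -0.42 ± 0.07. RNR1 was listed in set 2, with a log2 fold change of -0.30 ± 0.06 for the agonist. Being listed had already chosen it, since 99.9% of listed genes passed there and 44.2% passed as lower. Of the 8 tRNA genes on the minus strand, which is also that of ND6, 5 were tested and 4 passed as lower with the antagonist (edgeR's quasi-likelihood test). Among all tested genes 20.5% passed as lower. TRNN was at -0.73 ± 0.10, TRNY at -0.87 ± 0.13 and TRNP at -0.33 ± 0.08. TRNC (-0.59 ± 0.19) did not pass the test, although its groups did not overlap. TRNA was the fourth and passed on few reads, with 13 counts over the antagonist and 55 over the IgG libraries. TRNN (-0.80 ± 0.11) and TRNC (-0.51 ± 0.13) were lower with the agonist in set 2, where the same limit holds. The 3 that were not tested had few counts, TRNS1 with 24 and TRNE with 14 over the antagonist libraries, against 14 and 12 over the IgG libraries, and TRNQ with 1 against 3. Of the 22 mitochondrial tRNA genes 8 were tested in set 1.

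Of 10 nuclear MTRNR2L genes, near copies of RNR2, 6 were tested and 4 passed as lower with the antagonist, beside 20.5% of all tested genes. Among the 4 were MTRNR2L8 at -0.67 ± 0.15, MTRNR2L1 at -0.95 ± 0.14 and MTRNR2L2 at -0.36 ± 0.09 (adjusted p = 0.0066, 0.000588 and 0.00938 by edgeR). MTRNR2L9 (-0.49 ± 0.21) and MTRNR2L10 (-0.68 ± 0.26) did not pass (adjusted p = 0.0846 and 0.0587). Reads of RNR2 and of these copies can be exchanged.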
